A study of Mus musculus with 8 samples.

Results

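The Hippo pathway limits organ growth through a chain of protein kinases. Lats1 and Lats2, working with Mob1 adaptors and themselves activated by Stk3, Stk4 and Sav1, phosphorylate the coactivators Yap1 and Wwtr1 (the latter is widely called Taz) and hold them in the cytoplasm. Unphosphorylated Yap1 and Wwtr1 enter the nucleus and bind the TEAD transcription factors, which have little activity of their own, to switch on genes of growth and cell adhesion. Part of the control lies in protein location, which RNA levels do not measure.

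The members were 10 genes taken by symbol: the coactivators Yap1 and Wwtr1, the DNA-binding partners Tead1, Tead2, Tead3 and Tead4, the kinases Lats1 and Lats2, the angiomotin-like scaffold Amotl2 and the TEAD cofactor Vgll3. All probe sets annotated to exactly 1 of these genes were taken, 23 of the 45101 on the array. The 10 genes are among 18193 that the array annotation names. The RNA came from the microdissected genital tubercle region, the precursor of both penis and clitoris. The mouse embryos were of strain FVB/N and had reached embryonic day 14 (Theiler stage 22). There were 4 male and 4 female samples, untreated as far as the labels say and not pooled, each on 1 Affymetrix MOE430 array after 2 rounds of amplification. The labels do not say whether samples shared a litter, so each p-value reflects only how far these samples scatter, a scatter that may be technical in part. The samples are whole tissue, in which fewer cells of a type and less RNA per cell cannot be told apart.

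Levels are linear intensities, scaled by the authors to the same trimmed mean on every array. A difference is the male mean minus the female mean of log2(intensity + 16). This scale understates the change of dim probe sets. Standard errors (SE) come from a limma fit over 22519 tested probe sets. A probe set was tested if its mean log2 value reached the median of the array, 7.77, and called at a Benjamini-Hochberg adjusted p under 0.05. With 4 arrays per sex, precision is limited by their number. Of the tissue markers, Hoxd13 read 36381 ± 1956 (SD, n = 4) in females and 29770 ± 1276 in males and Shh, the ligand of the urethral epithelium, 24552 ± 2826 and 18737 ± 2621, while Hoxa13 lay below the intensity filter. Of the 6 tested markers, 4 were called lower in males: Hoxd13 (-0.29), Isl1 (-0.33), Shh (-0.39) and Twist1 (-0.31). Prrx1 (0.11) and Pdgfra (-0.08) did not pass on their brightest probe sets. A dimmer probe set of each was called higher in males, at 0.49 for Prrx1 and 1.12 for Pdgfra. A dimmer Isl1 probe set, 1422720_at, also leaned toward males, against its brightest, but did not pass (0.49, limma adjusted p = 0.0594). The Twist1 call was lost without male replicate 2 or 4 (adjusted p = 0.0538 in each case), and that of Shh without males 1 and 3 together (-0.22, adjusted p = 0.112). Summed intensities, here and for the later lists, take only the brightest probe set of each gene, tested or not. The sum for this list was 160004 to 179779 in females and 145091 to 155556 in males, without overlap. Male replicate 3 stood apart in reading 16036 for Xist, the RNA of the inactive X chromosome, against 230 to 620 on the other male arrays and 32465 or more on female arrays. On the same array the Y-linked Eif2s3y read 5571, within the 4109 to 6136 of the other male arrays and far from the 31.1 to 70.8 of the females. Whether that sample holds some female RNA is not known, and it was kept as labelled. The median intensity of the array was 184 to 207 in females and 212 to 249 in males, without overlap. All 9 member calls below were also made without male replicate 3.

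TEAD proteins recognise the hexamer GGAATG, read as CATTCC on the other strand. The start-site windows of the RefSeq promoter table (GRCm38.p6, the C57BL/6J genome, 250 bases before to 50 after a start) were searched for it on both strands. The table held windows for 8 of the 10 members, all but Tead1 and Tead4. The hexamer was present for 6 of these 8 genes: Yap1, Wwtr1, Tead3, Lats2, Amotl2 and Vgll3. It was present for 16.6% of all 27025 genes in the table and in 14.7% of all windows. By windows, 8 of 12 member windows held it, and several windows of a gene overlap. A match is a description of the letters only. The stretches of 30 bases around a match are shown because the same hexamer recurs across coactivators, partners, kinase and cofactor. They run 5′ to 3′ on the strand of the gene, with the hexamer in capitals.
Yap1, chr9:8004720-8004749, minus strand: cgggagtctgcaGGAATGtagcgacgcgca
Wwtr1, chr3:57576029-57576058, minus strand: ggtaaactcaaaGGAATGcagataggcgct
Tead3, chr17:28350706-28350735, minus strand: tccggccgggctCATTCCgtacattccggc
Lats2, chr14:57746102-57746131, minus strand: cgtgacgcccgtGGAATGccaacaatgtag
Amotl2, chr9:102717727-102717756, plus strand: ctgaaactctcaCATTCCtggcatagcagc
Vgll3, chr16:65815114-65815143, plus strand: cccgcctccccaCATTCCggctaccctgcc
Ccn1, chr3:145650071-145650100, minus strand: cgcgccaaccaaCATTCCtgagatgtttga
Counted from the start site, the hexamer began at -141 in Yap1, -136 in Wwtr1, -65 in Amotl2, -63 in Vgll3 and 5 in Lats2. The Tead3 stretch shown, with the hexamer at -123, holds a further copy at -114 that is printed in small letters. Tead3 copies not shown began at 3 in the same window and at -182 in another. Ccn1, a secreted matrix protein and widely used readout of Yap1 and Wwtr1, is shown for comparison and had the hexamer at -103. The 8 members with a window include Tead2 and Lats1, whose windows did not contain these letters.

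Of the 23 member probe sets, 19 passed the intensity filter, covering 9 genes. Of these 19, 9 probe sets of 7 genes were called, which is 47.4%, beside 40.5% of all tested probe sets. Of the calls, 6 were higher in males, where 18.7% of all tested probe sets were called, and 3 were higher in females, where 21.9% were. The share called was thus near the background of an array on which the sexes differed widely. The median difference was 0.29 over the tested member probe sets and -0.01 over all tested probe sets. The first of these medians counts genes with several probe sets more than once. By brightest probe set, the middle value of the 9 tested genes was that of Tead3, -0.10, beside a median of -0.12 over all genes. Male and female values were fully separated for 9 of the 19, beside 37.1% of all tested probe sets. Read on the brightest probe set of each gene, 6 of the 9 tested genes were called, 3 in each direction, beside 42.2% of all genes, of which 14% were called higher in males and 28.2% higher in females. Yap1, Tead2 and Amotl2 were lower in males, Wwtr1, Lats1, Lats2 and Vgll3 rose in males on at least 1 probe set, and Tead1 and Tead3 did not pass.

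**Figure D1:**
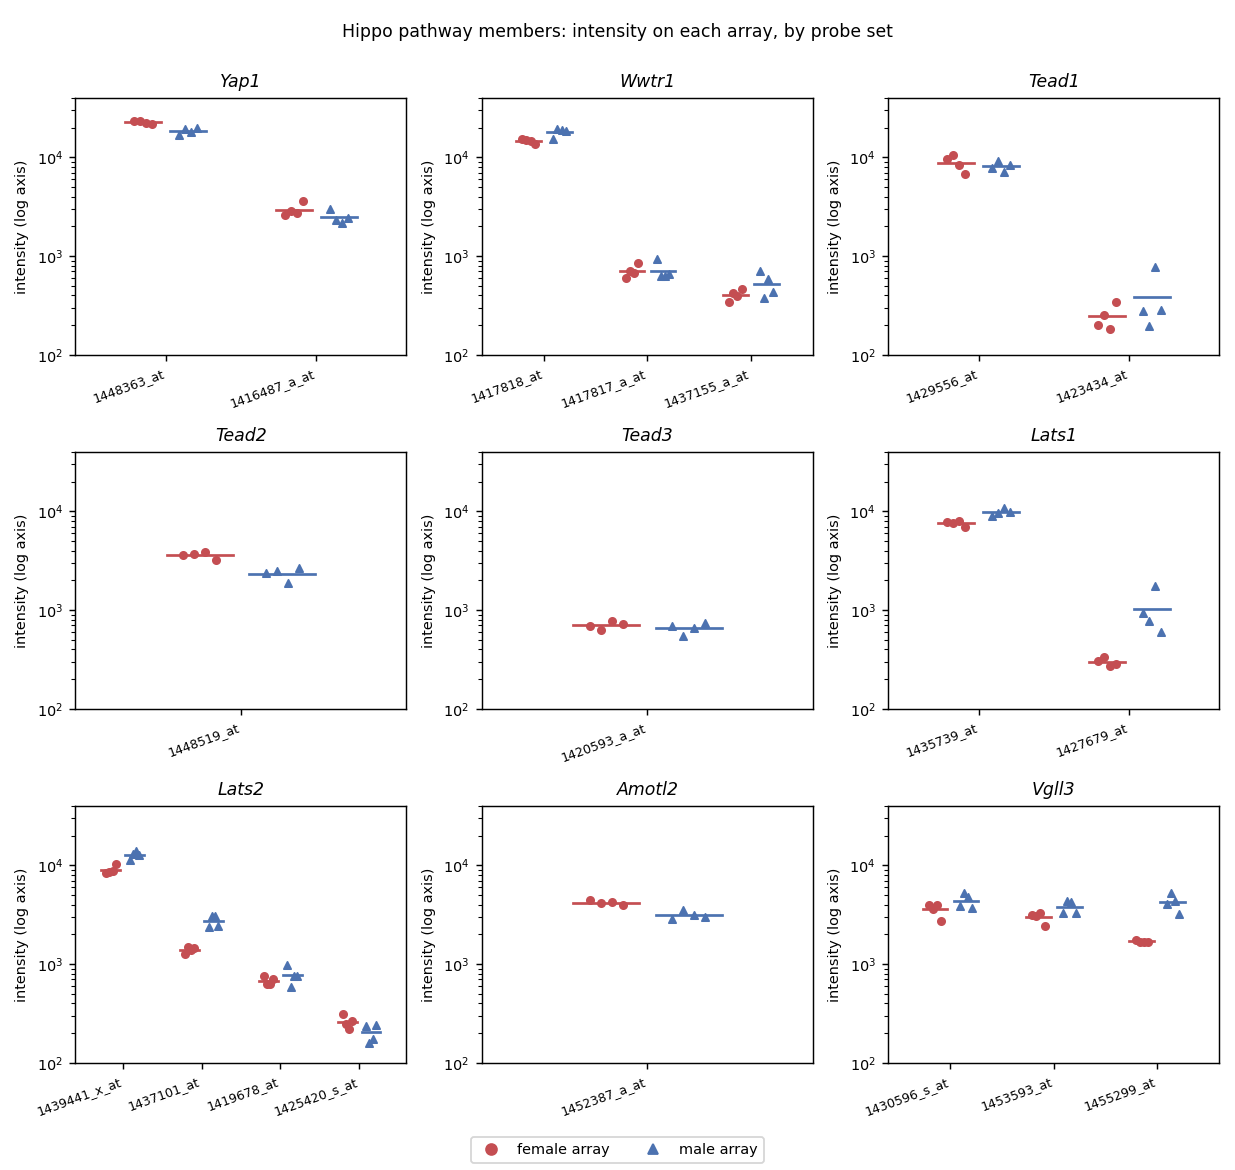
Intensity of each tested member probe set on the 4 female (circles) and 4 male (triangles) arrays, on a log axis, with the group mean as a line. For Lats1 1427679_at and Vgll3 1455299_at all male arrays lie above all female arrays. For each of the 2 Tead1 probe sets the male and female ranges overlap.

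The coactivators Yap1 and Wwtr1, close relatives that bind the same TEAD factors, differed in opposite directions. The brighter Yap1 probe set, 1448363_at, read 23147, 23086, 22447 and 21541 on the female arrays and 17006, 19231, 18010 and 19661 on the male arrays. Every male value lay below every female value. The difference was -0.29 ± 0.07 (SE, limma adjusted p = 0.00501), and the male mean was 0.819 times the female mean. The dimmer Yap1 probe set, 1416487_a_at, read 2944 ± 430 (SD, n = 4) in females and 2495 ± 372 in males. Its difference of -0.24 ± 0.14 had the same sign but did not pass (adjusted p = 0.195), and the ranges overlapped.

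Wwtr1 was read by 3 probe sets, of which the brightest was called. On 1417818_at the female arrays read 15482, 15064, 14713 and 13629 and the male arrays 15459, 19165, 18994 and 18340. Male replicate 1 sat among the females and the other male arrays sat above them. The difference was 0.29 ± 0.08 (SE, limma adjusted p = 0.0163), a male mean of 1.22 times the female mean. The call was lost without male replicate 2 (adjusted p = 0.0502) and without the variance trend (0.0642). The other Wwtr1 probe sets did not pass: 1417817_a_at differed by -0.00 ± 0.18 and 1437155_a_at by 0.32 ± 0.22, with overlapping ranges in both cases.

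Because both genes are read on every array, the log2 ratio of Wwtr1 to Yap1 on their brightest probe sets can be followed array by array. It lay between -0.66 and -0.58 in females and between -0.14 and 0.08 in males, without overlap. It differed by 0.57 between the sexes (two-sided exact permutation p = 0.0286, the lowest that 4 against 4 arrays can reach, and 0.0458 adjusted over 16 ratios, chosen after the values were seen). Both probe sets had already been called, in opposite directions, so a difference in their ratio follows from those calls and adds no support to them. How often ratios between different genes separate the sexes was not computed. The ratio shows unequal change, not the relative abundance of the transcripts, since probe sets differ in brightness for the same amount of RNA.

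By the root mean square difference of mean-centred log2 values over the 8 arrays, the genes most like Yap1 were Tpm4, a tropomyosin of the actin cytoskeleton (0.036), Slc38a1, an amino acid transporter (0.037), and Rfwd3, a ubiquitin ligase (0.038). Most like Wwtr1 were Dip2b (0.031), the autophagy receptor Nbr1 (0.040) and Tmem165 (0.043). The sex difference of these genes was -0.26 to -0.32 in the first group and 0.25 to 0.29 in the second. The choice by likeness over the same 8 arrays fixes differences near that of the coactivator, so they are a description only.

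**Figure D2:**
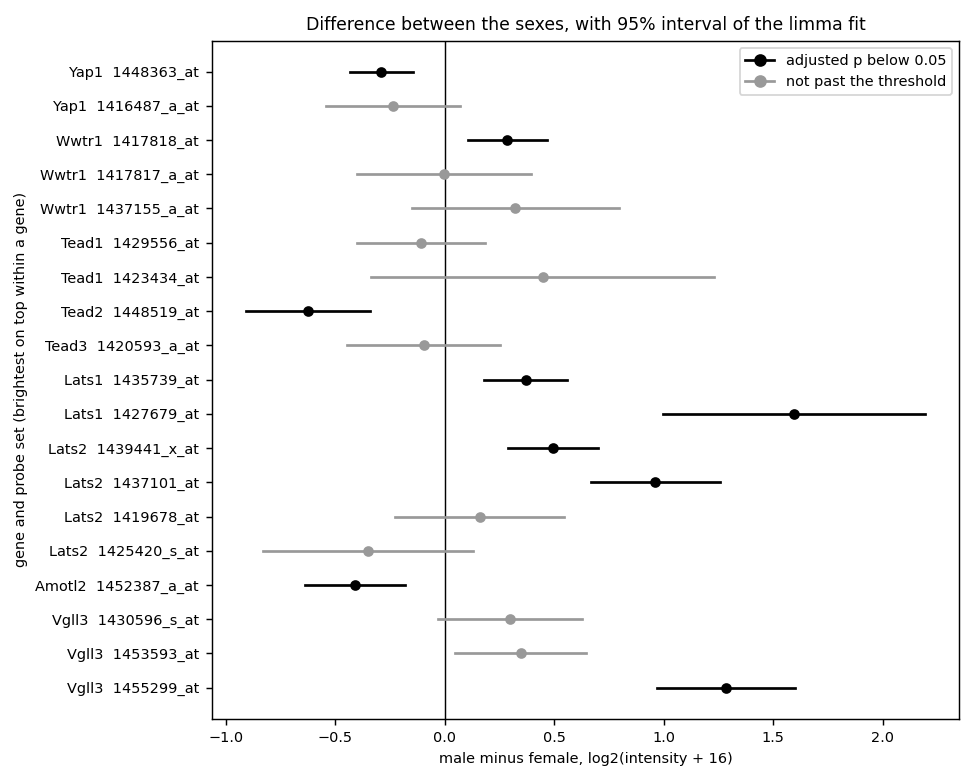
Male minus female difference in log2(intensity + 16) of each tested member probe set, with its 95% interval from the limma fit; black marks an adjusted p below 0.05. Yap1, Tead2 and Amotl2 lie to the left of 0, and the called probe sets of Lats1, Lats2, Vgll3 and Wwtr1 lie to the right.

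The TEAD factors carry the DNA-binding domain through which both coactivators reach the genome. Tead2, the family member best known from early embryonic and neural tissue, was the member that differed most toward females. Its probe set 1448519_at read 3594, 3703, 3863 and 3239 on the female arrays and 2351, 2484, 1863 and 2685 on the male arrays. All male values were below all female values. The difference was -0.62 ± 0.13 (SE, limma adjusted p = 0.00297), a male mean of 0.652 times the female mean.

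Tead1, required for heart development in the mouse, had 2 tested probe sets and neither passed. The brighter, 1429556_at, read 8866 ± 1695 (SD, n = 4) in females and 8145 ± 861 in males. It differed by -0.11, with a 95% interval from -0.40 to 0.19. The dimmer, 1423434_at, read 185 to 345 in females and 195 to 769 in males, with the highest value on male replicate 3. Its difference of 0.45 ± 0.36 fell to 0.05 without that array. Tead3, best known from placenta, differed by -0.10 ± 0.16 with a 95% interval from -0.44 to 0.25, and its sexes overlapped. Tead4, which specifies the trophectoderm of the blastocyst and acts in myogenic cells, lay below the filter on both of its probe sets. These read 32.4 to 126 and 25.8 to 70.6 over the 8 arrays, and their sexes overlapped.

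The kinases Lats1 and Lats2 phosphorylate the coactivators, and both rose in males on their brightest probe sets. Lats1 on 1435739_at read 7808, 7620, 8035 and 7003 in the females and 8926, 9738, 10798 and 9950 in the males. The groups did not overlap, and the difference was 0.37 ± 0.09 (SE, limma adjusted p = 0.00565). On the dimmer 1427679_at the females read 304, 338, 273 and 286 and the males 932, 776, 1759 and 599. The spread among the males was wide, with male replicate 3 highest. The difference there was 1.60 ± 0.28 (limma adjusted p = 0.000956), a male mean of 3.39 times the female mean, and 1.30 without male replicate 3. Over the array, the median difference was 0.08 without the intensity filter, -0.01 over tested probe sets and -0.06 over the upper quartile of brightness. Dimmer probe sets thus leaned more toward males, and the part of this in the dim Lats1 probe set was not tested.

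Lats2 is both an inhibitor of Yap1 and Wwtr1 and one of their transcriptional targets, a feedback loop. Its brightest probe set, 1439441_x_at, carries the suffix for probes prone to cross-hybridization. It read 8458, 8672, 8722 and 10453 in the females and 11278, 12919, 14053 and 12894 in the males. The difference was 0.49 ± 0.10 (SE, limma adjusted p = 0.0018). The probe set 1437101_at, without that suffix, read 1259, 1487, 1387 and 1467 in the females and 2382, 3103, 3111 and 2437 in the males. All male values again lay above all female values, and the difference was 0.96 ± 0.14 (limma adjusted p = 0.000313). The other tested Lats2 probe sets did not pass, at 0.16 ± 0.18 on 1419678_at and -0.35 ± 0.22 on 1425420_s_at. The remaining Lats2 probe sets, 1419679_at and 1426156_at, were below the filter, at 3.10 to 57.3 and 6.62 to 30.7.

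Amotl2, a junctional scaffold that binds Yap1 and is itself induced by it, was lower in males. The only probe set read 4419, 4147, 4227 and 3944 on the female arrays and 2895, 3569, 3147 and 2998 on the male arrays. No values overlapped, and the difference was -0.41 ± 0.11 (SE, limma adjusted p = 0.00888). The 2 feedback targets among the members thus differed in opposite directions, with Lats2 higher and Amotl2 lower in males. On their brightest probe sets, the 4 tubercle markers called lower in males differed by -0.29 to -0.39. The other tested ones, Prrx1 and Pdgfra, differed by 0.11 and -0.08. Of all genes, 28.2% were called higher in females. The part of tubercle tissue in the differences of Yap1 and Amotl2 was not tested.

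Vgll3 competes with Yap1 and Wwtr1 for TEAD factors and is known from muscle, and from human skin as a gene higher in females. Here it was higher in males on the probe set 1455299_at. The females read 1773, 1692, 1681 and 1675, a narrow range, and the males 4102, 5304, 4373 and 3189. The difference was 1.28 ± 0.15 (SE, limma adjusted p = 0.000101), a male mean of 2.49 times the female mean. The 2 brighter Vgll3 probe sets also leaned toward males, by less, and missed the threshold. Of these, 1453593_at read 2453 to 3315 in females and 3324 to 4351 in males, without overlap (0.35 ± 0.14, adjusted p = 0.0607). For 1430596_s_at the difference was 0.30 ± 0.15 and the ranges overlapped.

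Skeletal muscle markers differed in the same direction as Vgll3. All 6 tested of 7 listed markers were called higher in males, as were 14% of all genes, Myod1 at 0.82 ± 0.20 and Myh3 at 1.47 ± 0.31 among them, while Myf5 lay below the filter. The summed intensity of the list ran from 3360 to 8134 on the female arrays and from 11043 to 17913 on the male arrays. Of 3 tested cartilage markers, 2 were called higher in males, with summed intensities of 1915 to 2130 in females and 4147 to 7181 in males. Acan lay below the filter (0.68). Endothelial markers were called higher in males for 3 of 4 tested genes and lower for Cdh5 (-0.57 ± 0.11), with summed intensities of 6233 to 7549 and 8075 to 10118. Tie1, below the filter, read lower in males (-1.04). Neuron and glia markers were called higher in males for 2 of 3 tested genes, with summed intensities of 2535 to 3327 and 3787 to 4503. Tubb3, below the filter, read lower in males (-0.54), with overlap. Epithelial markers were called in both directions, 1 higher in males and 2 higher in females of 5 tested, with summed intensities of 41828 to 50006 in females and 44685 to 48760 in males. All 4 tested erythroid and macrophage markers were called, 2 in each direction. Hbb-y (0.24) and Csf1r (0.38) were higher in males, Hba-x (-1.09) and Cd68 (-0.88) lower. Their sums ran from 40354 to 43456 and from 45762 to 55492. Most of each sum was the Hbb-y probe set 1436823_x_at, at 37212 to 40098 in females and 42548 to 52757 in males. Of the other Hbb-y probe sets, 1436717_x_at was called higher in males (0.19) and 1450621_a_at lower (-0.42). Of all genes, 42.2% were called in either direction and 28.2% as higher in females. The part of these cell types in the member differences was not tested.

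Probe sets of the same gene often changed by different amounts. Within the 6 members with more than 1 tested probe set, 15 ratios between probe sets were compared between the sexes by the same permutation test. With the ratio of Wwtr1 to Yap1 these make the 16 ratios of the adjustment. For 9 of the 15 male and female ratios were fully separated, at the smallest possible p of 0.0286 (adjusted p = 0.0458). Over all genes, 30.2% of 13107 such ratios were fully separated. The 15 ratios share probe sets, and 6 of them are between the 4 tested probe sets of Lats2, so they are not independent. In Vgll3 the log2 ratio of 1430596_s_at to 1455299_at fell by 0.99, from 1.05 ± 0.23 (SD, n = 4) in females to 0.06 ± 0.13 in males. In Lats1 the ratio of the dim to the bright probe set differed by 1.23, and in Lats2 the ratio of 1425420_s_at to 1437101_at differed by -1.31. For the 2 Yap1 probe sets no unequal change was detectable: their log2 ratio differed by 0.05 between the sexes, with an SD of 0.24 in females and 0.27 in males (exact permutation p = 0.543). The files do not place the probe sets along the transcripts, and whether isoform or 3′ end use moved with these ratios was not tested. Male replicates 1 and 3 had the lowest 3′ to 5′ signal ratios of the control probe sets, 5.30 and 5.60 for actin and 12.8 and 12.6 for Gapdh, against 6.47 to 9.04 and 14.4 to 21.2 on the other arrays. They also had the highest array medians and the highest values of the dim Lats1 probe set, whose difference was 1.15 ± 0.21 without both (limma adjusted p = 0.00267). The 9 member calls were all made without both arrays, and the part of RNA quality in the ratios was not tested.

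**Figure D3:**
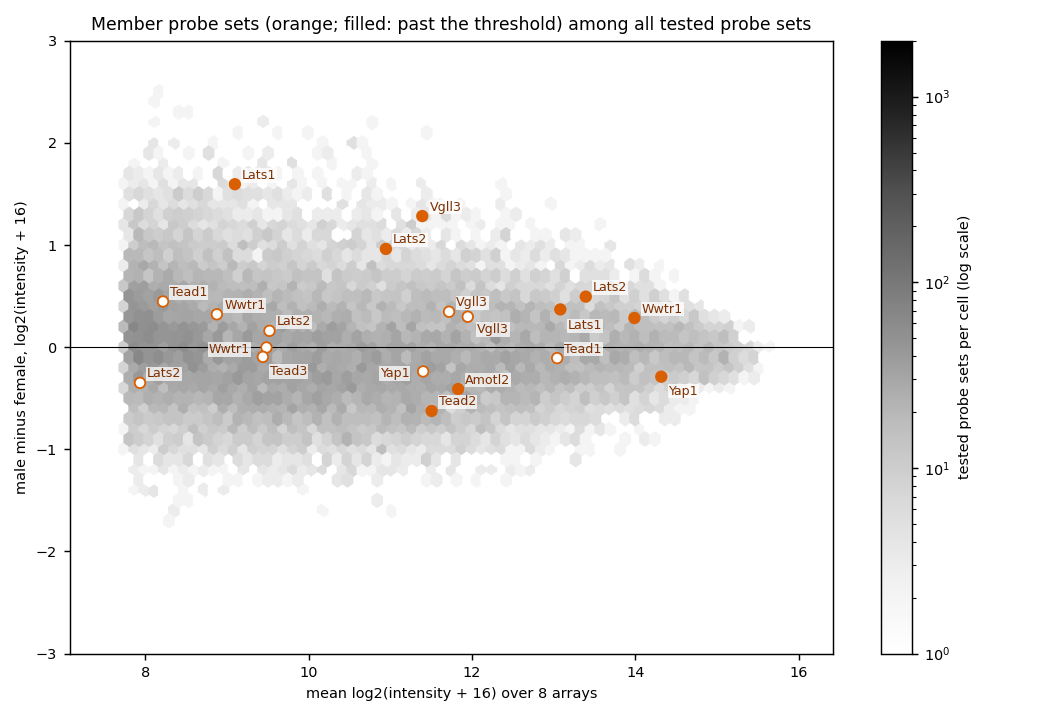
Male minus female difference against the mean log2(intensity + 16) over 8 arrays; grey shading counts all tested probe sets and orange points are the member probe sets, filled where called. The member points lie within the spread of all tested probe sets, and 18 probe sets beyond 3 in either direction are outside the axis.

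The other genes of the pathway were read on their brightest tested probe set. Of 18 tested kinase core and upstream genes, 3 were called higher in males, 6 higher in females and 9 did not pass, 50% called beside 42.2% of all genes. The median difference of the list was -0.03, beside -0.12 over all genes. The angiomotin family was split. Amotl1 rose from 11712 ± 1987 (SD, n = 4) in females to 20019.7 ± 1498 in males (0.79 ± 0.11, limma adjusted p = 0.000344), with a second probe set called in the same direction at 1.19. The founding member Amot differed by 0.23 ± 0.07 and was called, whereas Amotl2 was lower. The Amot call was lost without female replicate 3 (adjusted p = 0.0567) or male replicate 3 (0.0531).

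The scaffold and adaptor genes of the kinase core did not share a direction. Sav1, the scaffold of Stk3 and Stk4, fell by 0.47 on the log2 scale (SE 0.11) and Wtip, a LIM protein that binds Lats kinases, by 0.70 (SE 0.13). The Lats activator Mob1b rose by 0.46 ± 0.14, a call that ended without male replicate 2 (adjusted p = 0.0588) or male replicate 3 (0.0527). Its paralog Mob1a was called lower on its brightest probe set (-0.38 ± 0.11) and higher on another (0.72 ± 0.26). The first of these was not called without males 1 and 3 together (-0.26, adjusted p = 0.117). The upstream kinase Taok1 did not pass on its brightest probe set (-0.20 ± 0.13), while 3 dimmer ones were called higher in males, the largest at 2.08 ± 0.28. Map4k4, another upstream kinase, was called lower on 3 probe sets, the brightest at -0.44 ± 0.09, and higher on a dimmer probe set at 1.32 ± 0.27. Taok2 and Taok3 lay below the filter.

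The Fat and Dachsous cadherins, large adhesion proteins that feed into the pathway and into planar cell polarity, were called for 3 of 5 tested genes, 1 higher in males and 2 higher in females, beside 42.2% of all genes called. Dchs1, a ligand of Fat4, read 674, 644, 580 and 697 on the female arrays and 365, 347, 355 and 243 on the male arrays. Its difference was -0.97 ± 0.18 (SE, limma adjusted p = 0.0017), without overlap. Fat2 was lower in males (-0.69 ± 0.20) and Fat3 higher (0.90 ± 0.18). Fat4 did not pass on its brightest probe set (-0.14 ± 0.09), and another was called higher in males (0.50 ± 0.17). Of the other vestigial-like cofactors, Vgll4, which represses TEAD activity, was called higher in males at 0.78 ± 0.26 (limma adjusted p = 0.0318). Male replicate 1 read 1466 and the other males 567 to 729, beside 393 to 515 in females. That call was lost without any 1 of female replicates 1, 3 and 4 and male replicate 3, at an adjusted p of up to 0.0776, and the difference was 0.49 without male replicate 1. Vgll2 did not pass (-0.13 ± 0.15) and Vgll1 lay below the filter.

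Target genes of Yap1, Wwtr1 and TEAD outside the members were mostly not called. Of 18 tested, 4 were called higher in males, 2 higher in females and 12 did not pass, 33.3% beside 42.2% of all genes, with a median difference of 0.01. The most used readouts did not pass. Ccn2, a secreted matrix protein, read 2515 ± 403 (SD, n = 4) in females and 2676 ± 420 in males. It differed by 0.09, with a 95% interval from -0.24 to 0.42. Ccn1 differed by -0.33 with a 95% interval from -0.76 to 0.09 on its brightest probe set, which carries the cross-hybridization suffix. None of its 4 tested probe sets passed, and they did not share a direction, with the others at -0.22, 0.25 and 0.33. The 4 called targets with the largest differences were Crim1, a transmembrane binder of BMP ligands, at 0.98 ± 0.23, the growth factor Tgfb2 at 0.56 ± 0.20, the Arf regulator Asap1 at -0.49 ± 0.11 and Arhgef17 at -0.48 ± 0.15. The other called targets, Rbms3 (0.36 ± 0.08) and Igfbp3 (0.28 ± 0.08), an insulin-like growth factor binding protein, were higher in males, and the Igfbp3 call was lost without males 1 and 3 together (adjusted p = 0.0954). Tgfb2 was called lower in males on another probe set (-0.55 ± 0.15), and the Tgfb2 call was lost without any 1 of 6 arrays, with 0.33 and an adjusted p of 0.0706 without male replicate 1. The Arhgef17 call was lost without female replicate 2 (adjusted p = 0.0594). The hexamer was in a window of 5 of the 13 target genes in the promoter table.

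**Figure D4:**
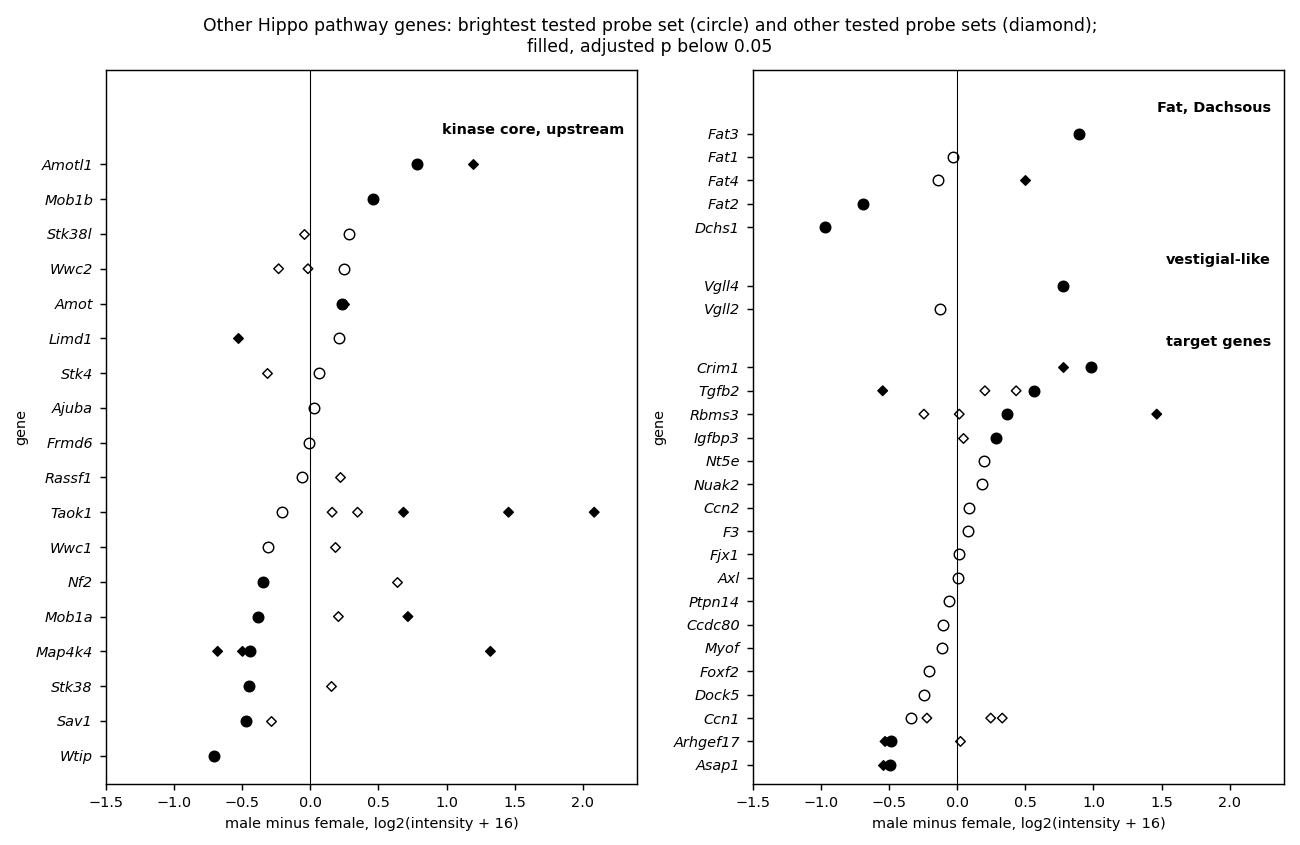
Male minus female difference in log2(intensity + 16) for the tested genes of 4 pathway lists; circles are the brightest tested probe set of a gene, diamonds its other tested probe sets, filled where the adjusted p was below 0.05. Map4k4, Mob1a and Tgfb2 have filled symbols on both sides of 0, and Ccn1 and Ccn2 have none filled.

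The array's control for 18S ribosomal RNA, as the geometric mean of its probe sets, read 8925 to 23857 on the female arrays and 16450 to 30979.7 on the male arrays (exact permutation p = 0.114). With its log2 level as a covariate, 5 of the 9 member calls remained: both of Lats1, both of Lats2 and Vgll3. Those of Yap1 (-0.25, limma adjusted p = 0.0775), Tead2 (-0.51, 0.0532), Amotl2 (-0.36, 0.0973) and Wwtr1 (0.31, 0.0683) did not pass, with their directions as before. The share of all probe sets called was then 21%.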

How the data were processed

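Per the labels, each sample's RNA went through 2 rounds of amplification and biotin labelling before hybridization to 1 array. The deposited values are linear intensities that the authors produced in GCOS (Affymetrix), per the submitters' processing notes, with no version stated there. The 2% trimmed mean was 1500 in every column, so the values were not normalized again. Members, lists and most alternatives were chosen with earlier results of these data known, and the ratios between probe sets after the values were seen.

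Of 45037 probe sets other than 64 controls, 34945 named 1 gene, 932 several and 9160 none. Values were transformed as log2(value + 16), and probe sets at or above the median mean log2 value were tested with limma (version 3.58.1, R version 4.3.3; lmFit, eBayes with trend, a model of sex alone, Benjamini-Hochberg over 22519 probe sets). List genes were read on their brightest tested probe set. The text gives all member probe sets, up to 4 called genes with the largest differences per list, Ccn1 and Ccn2, and the 3 genes nearest to Yap1 and Wwtr1. Amot, Rbms3, Igfbp3, Mob1a, Taok1, Map4k4, Fat4, Vgll1, Vgll2 and the marker examples were added after their values were seen. The method was tested on simulated data with independent noise and few changed probe sets. In these data 40.5% were called, so the simulation does not give the error rate here. No pair of the 28 pairs of arrays held identical values.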

Additional observations from a re-analysis of the deposited data

Results flagged for a closer look

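Over the 19 tested member probe sets, 38 groups of 4 arrays were examined for a single array far from the others, and 2 had one, where chance gives about 1 in 20. On Wwtr1 1417817_a_at male replicate 1 read 926 while the other male arrays read 624 to 656. On Lats2 1439441_x_at female replicate 4 read 10453 while the other female arrays read 8458 to 8722, and all male arrays were above it.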

How the results depend on the processing

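The 9 member calls were compared over 19 alternatives. The count was 8 to 10 when any 1 array was left out. It was 5 with the 18S covariate, which also lowered the calls over all probe sets from 9128 to 4725. Leaving out males 1 and 3 together gave the same 9. Vgll3 1453593_at was gained under quantile normalization, the upper-quartile filter, the replicate block and without male replicate 1 or 4. The upper-quartile filter left Lats1 1427679_at untested. Of the 18 kinase core and upstream genes, 4 were called with the 18S covariate, 5 with the mean over probe sets of a gene and 7 to 10 without any 1 array. Of the target genes, 2 were called with the covariate, 3 with the mean over probe sets and 5 to 6 without any 1 array. Correlations of deviations between same-numbered arrays ran from -0.13 to 0.04, which cannot show whether the replicate numbers pair the samples. With the replicate number as a block 10 member probe sets were called, 8 upstream genes and 6 target genes. Values that changed sign had not been called: Wwtr1 1437155_a_at (-0.0022), Lats2 1419678_at (-0.016), Tead1 1423434_at (-0.013) and Tead1 1429556_at (0.0073) without males 1 and 3, and Tead1 1423434_at with the covariate (-0.044). Without 1 array, Wwtr1 1417817_a_at ran from -0.136 to 0.0892 and Ccn2 from -0.0133 to 0.186. The causes were not tested.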

Other observations

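Below the intensity filter, 2 target genes had values that the comparisons do not use, chosen after they were seen. Gadd45a, a stress-response gene, read 131 ± 55.6 (SD, n = 4) in females and 317 ± 51.1 in males. Ankrd1, a muscle-enriched ankyrin repeat protein whose promoter window holds the TEAD hexamer at -210 and -123, read 15.6 ± 11.4 in females and 82.2 ± 45.6 in males on 1420992_at, and 11.4 ± 4.21 and 12.4 ± 3.55 on 1420991_at.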
